A study of Mus musculus with 16 samples.

Results

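The FGF and BMP signalling genes described here are 54 of the 21220 genes in the deposited normalized table. They were chosen by gene symbol: 16 secreted fibroblast growth factors (FGFs), 4 intracellular FGFs, 4 FGF receptors, 3 Sprouty genes, 10 bone morphogenetic proteins (BMPs), 3 BMP receptors, the BMP antagonists Nog and Grem1, 8 SMAD genes and 4 Id genes. Their RNA was sequenced in organ cultures of the mouse organ of Corti, the strip of cochlear epithelium that holds the hair cells, dissected from C57BL/6 animals at postnatal day 0 and grown for 3.5 days. The cultures were wild type or Rest(+/deltaExon4), that is, heterozygous for an allele of Rest from which exon 4 is deleted; Rest encodes a repressor of neuronal genes, and no group lacked it on both alleles. Each genotype received solvent (0.1% DMSO) or 2 nM FK228, an inhibitor of class I histone deacetylases, from day 1 to day 1.5 and again from day 3 to day 3.5 in vitro. There were 4 libraries for each of the 4 combinations, and every library pooled RNA of 6 to 8 cultures. Whether the pools of a group stem from different litters is not stated in the labels, and the p-values speak only for the spread among these pools.

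FGFs bind receptor tyrosine kinases at the cell surface and signal through the Ras and MAP kinase cascade, which switches on its own inhibitors of the Sprouty family. BMPs bind pairs of type I and type II serine kinase receptors, which phosphorylate SMAD1, SMAD5 and SMAD9; these join SMAD4 and activate genes such as Id1, Id2 and Id3, while SMAD6 and SMAD7 inhibit the cascade. In the cochlea, FGF8 from inner hair cells acts on FGFR3 in the neighbouring supporting cells, FGF20 and FGFR1 are needed for the sensory progenitors, and BMP4 is made at the lateral edge of the sensory epithelium.

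Libraries held 12361027 to 23611571 gene counts, and 46 of the 54 members passed the filter on low counts. Levels are given as CPM, read counts relative to library sizes scaled by TMM factors, and group values as mean ± SD of 4 libraries. Rest itself was at 81.4 ± 5.42 CPM in wild-type solvent cultures and at 88.3 ± 7.64 CPM in heterozygous ones, and a count over the whole gene does not check the loss of exon 4. Spike-in RNA (ERCC) took a mean of 0.3497% of counts in heterozygous FK228 libraries and 0.178% to 0.205% in the other groups. Reads outside genes made up 11.2% to 22.2%, lowest in wild-type solvent library 1 and heterozygous solvent library 4. All 14 hair cell markers and all 15 supporting cell markers of the lists used were above the filter. In these whole cultures, fewer cells of a type and less RNA per cell cannot be told apart.

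FK228 lowered many more members than it raised. In wild-type cultures 27 of the 46 tested members passed the test, 4 higher and 23 lower, against 49.0% of all 17125 genes tested (23.7% higher and 25.3% lower). In heterozygous cultures 23 members passed, 4 higher and 19 lower, against 48.4% of all genes (23.8% higher and 24.7% lower). These counts include Bmp8a, Fgf15 and Fgf21 in both genotypes, Bmp15 in wild type and Fgf3 in heterozygous cultures. Such members passed the filter because of the groups where they were high. The share of members called, 58.7% in wild type and 23 of 46 in heterozygous cultures, was thus not far from that of all genes, while the members' median log2 fold change was -0.51 in wild type and -0.38 in heterozygous cultures, beside -0.01 and 0.00 over all genes. Solvent and FK228 libraries did not overlap for 3 higher and 17 lower members in wild type (44.7% of all genes, 21.9% higher and 22.8% lower) and for 4 higher and 17 lower members in heterozygous cultures (42.6% of all genes, 21.1% higher and 21.5% lower).

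Bmp8a, Bmp8b and Fgf15 rose in both genotypes. Of these, Bmp8a and Fgf15 reached the level of the filter (about 0.627 CPM) only in the FK228 groups, so they had to differ to be tested. The members that fell in both genotypes numbered 15, which is 65.2% of the 23 lowered in wild type and 78.9% of the 19 lowered in heterozygous cultures: Bmp1, Bmp3, Bmp5, Bmp7, Fgf1, Fgf2, Fgf18, Fgf21, Fgfr3, Fgfr4, Id3, Smad1, Smad3, Smad5 and Spry2. The difference of the FK228 effects between genotypes depended on the scaling. With TMM factors, 0 of 46 members passed edgeR's quasi-likelihood test of the difference (0.0234% of all genes), 2 had an unadjusted p under 0.05, the smallest adjusted p was 0.552, for Fgf11, and DESeq2 also called 0. With libraries scaled to spike-in RNA (ERCC), 10 members passed it, each with a more negative effect in heterozygous cultures: Bmp7, Bmpr1a, Bmpr2, Fgf1, Fgf10, Fgfr1, Id3, Smad3, Smad7 and Spry2, with adjusted p from 0.0287 (Fgf1) to 0.0437 (Id3). Of all 17125 genes, 4060 passed with a more negative and 9 with a more positive effect under that scaling, so this was a shift of many genes. With TMM factors, members named below as called in only 1 genotype are therefore not shown to respond to a different degree in the other.

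**Figure D1:**
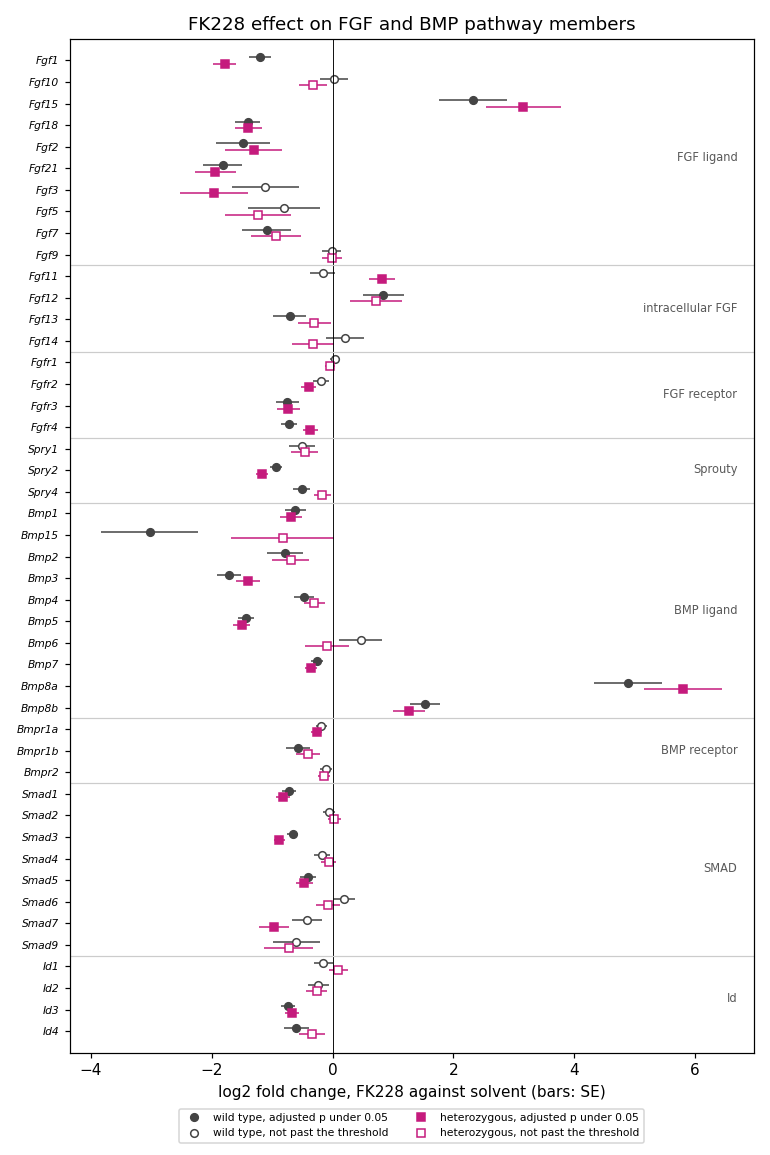
Log2 fold change with FK228 against solvent for each tested FGF and BMP signalling gene (one row per gene), in wild-type and heterozygous cultures, with bars of 1 SE of the model. The points lie mostly to the left of 0, with Bmp8a, Bmp8b and Fgf15 to the right in both genotypes.

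These comparisons are relative to the other genes of a library. When libraries were scaled to the spike-in RNA instead, the median of all genes moved to -0.16 with FK228 in wild type, to -0.72 with FK228 in heterozygous cultures and to -0.74 for heterozygous against wild type with FK228. The split of called members became 3 higher and 23 lower in wild type and 2 higher and 39 lower in heterozygous cultures. Over all 17125 genes it was 2008 higher and 4516 lower in wild type and 807 higher and 10717 lower in heterozygous cultures. No called FK228 effect changed sign under that scaling, but the calls of Bmp8b and Fgf11 in heterozygous and Fgf12 in wild-type cultures were lost.

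Levels between genes were compared as CPM per kilobase of exon, averaged over the 4 groups. Spry2, which encodes an inhibitor of receptor tyrosine kinase signalling, led with 293.9 CPM per kb. Id3 followed with 124 and Id2 with 103.5 CPM per kb, both inhibitors of basic helix-loop-helix transcription factors, although Id2 (102.2) was above Id3 (90.8 CPM per kb) in wild-type FK228 libraries. The BMP ligands with the most RNA were Bmp3 (17.3 CPM per kb) and Bmp4 (16.1 CPM per kb). Their order turned with treatment: Bmp3 was above Bmp4 in solvent (24.4 against 17.9 CPM per kb in wild type, 27.0 against 18.5 in heterozygous cultures) and below it with FK228 (7.46 against 12.9 and 10.2 against 14.97). Among the FGF receptors the order was Fgfr1 at 9.01, Fgfr2 at 8.78, Fgfr4 at 4.55 and Fgfr3 at 2.81 CPM per kb. The lowest member was Grem1, at 0.0245 CPM per kb.

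**Figure D2:**
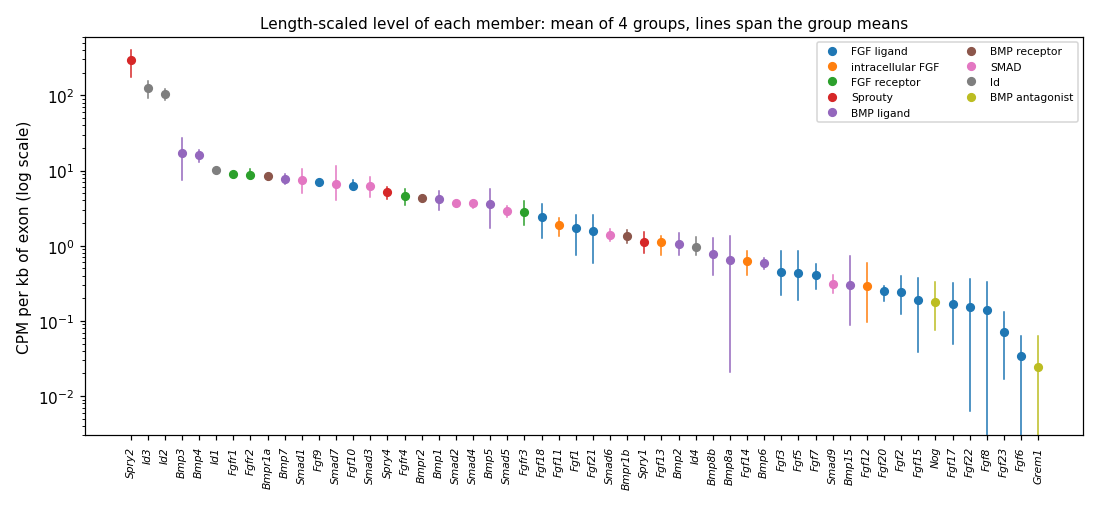
Level of each FGF and BMP signalling gene in CPM per kilobase of exon (log axis) in the 4 groups. Spry2 stands highest, above Id3 and Id2, which lie between 87.0 and 156.8 CPM per kb in the 4 groups.

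Of the FGF receptors, which carry the signal of the secreted FGFs into the cell, Fgfr3 and Fgfr4 fell with FK228 in both genotypes. Fgfr3 (ENSMUSG00000054252, GRCm38 chr5:33721674-33737068, plus strand) is the receptor by which supporting cells, and above all pillar cells, read FGF8. In wild-type cultures, Fgfr3 stood at 35.5, 19.6, 24.9 and 31.0 CPM in solvent and at 17.9, 18.1, 19.4 and 10.7 CPM with FK228. In heterozygous cultures it stood at 21.8, 19.9, 25.3 and 23.3 CPM in solvent and at 16.1, 14.5, 10.9 and 12.8 CPM with FK228. Every FK228 library lay below every solvent library of its genotype, although the lowest wild-type solvent library was close to the highest FK228 library. The means fell from 27.7 ± 6.96 to 16.5 ± 3.95 CPM in wild type (log2 fold change -0.75 ± 0.19, adjusted p = 0.00282) and from 22.6 ± 2.29 to 13.6 ± 2.21 CPM in heterozygous cultures (log2 fold change -0.73 ± 0.19, adjusted p = 0.00399). Between genotypes Fgfr3 did not pass the test, with overlapping libraries in solvent (log2 fold change -0.30 ± 0.19, adjusted p = 0.621) and with FK228 (log2 fold change -0.28 ± 0.19, adjusted p = 0.605).

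Fgfr4, a receptor with a strong preference for FGF19-type ligands, stood at 21.3, 17.6, 20.02 and 22.6 CPM in wild-type solvent and at 11.9, 14.99, 12.3 and 10.3 CPM in wild-type FK228 libraries. In heterozygous libraries it was at 18.7, 16.6, 20.3 and 15.96 CPM in solvent and at 15.3, 14.3, 12.2 and 13.8 CPM with FK228. The treated libraries were again below the solvent libraries of their genotype without overlap, with a narrower gap in heterozygous cultures. The decrease was 1.65-fold in wild type (log2 fold change -0.72 ± 0.13, adjusted p = 0.000139) and 1.29-fold in heterozygous cultures (log2 fold change -0.37 ± 0.13, adjusted p = 0.0253). The heterozygous call was lost when heterozygous solvent library 1 or 4 or FK228 library 4 was left out (adjusted p up to 0.0815), and also with the share of reads outside genes as a covariate (adjusted p = 0.0628).

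Fgfr2, whose isoforms serve epithelium and mesenchyme, was at 70.5, 101, 99.8 and 101 CPM in wild-type solvent and at 75.9, 92.8, 88.8 and 68.0 CPM in wild-type FK228 libraries. In heterozygous cultures it was at 125, 116, 93.0 and 94.98 CPM in solvent and at 80.2, 79.8, 74.1 and 91.5 CPM with FK228. The wild-type groups overlapped and the heterozygous groups did not. Fgfr2 fell 1.32-fold in heterozygous cultures (log2 fold change -0.40 ± 0.13, adjusted p = 0.0155), a call lost without heterozygous solvent library 1 (adjusted p = 0.0587), and did not pass in wild type (log2 fold change -0.19 ± 0.13, adjusted p = 0.225). The annotated Fgfr2 gene shares exon bases with Ctbp2 on the same strand, and Ctbp2, a transcriptional corepressor and part of the hair cell ribbon, fell in both genotypes (log2 fold change -0.65 ± 0.12 and -0.79 ± 0.12).

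Fgfr1, the receptor needed for sensory progenitors, gave no call in any comparison. Its group means were 91.3 ± 7.76 CPM in wild-type solvent, 94.1 ± 4.97 CPM in wild-type FK228, 86.5 ± 7.77 CPM in heterozygous solvent and 84.1 ± 5.04 CPM in heterozygous FK228 libraries. The FK228 effect was log2 fold change 0.04 ± 0.08, adjusted p = 0.676 in wild type and log2 fold change -0.04 ± 0.08, adjusted p = 0.71 in heterozygous cultures, the smallest SEs among the 4 receptors. In CPM per kilobase, the means of Fgfr1 and Fgfr2 lay above that of Fgfr4, and Fgfr4 above Fgfr3, in every group, and Fgfr1 and Fgfr2 did not separate beyond their spread in solvent.

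**Figure D3:**
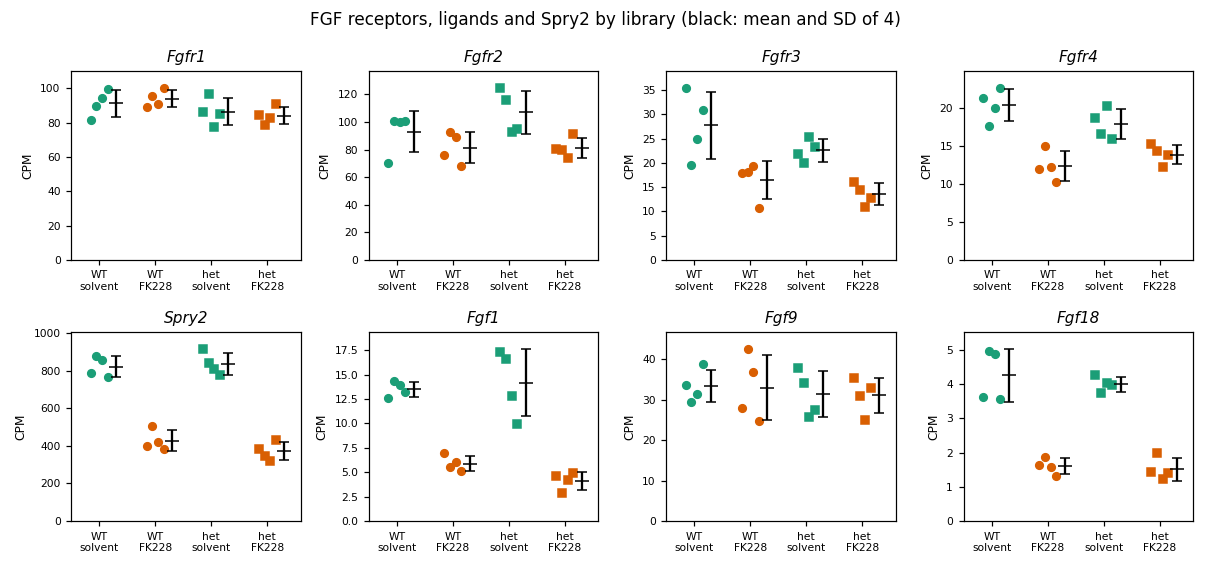
CPM of the 4 FGF receptors, Spry2, Fgf1, Fgf9 and Fgf18 in each library (points, linear axes from 0) with the mean and SD of 4 libraries per group. Fgfr3, Fgfr4, Spry2, Fgf1 and Fgf18 lie lower with FK228 in both genotypes, while Fgfr1 and Fgf9 overlap across all 4 groups.

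The secreted FGFs were mostly rare. Of 16 genes, 10 were tested, and 5 fell and 1 rose with FK228 in each genotype. That is 60% called in each, beside 49.0% of all genes in wild type and 48.4% in heterozygous cultures. The calls include Fgf15 and Fgf21 in both genotypes and Fgf3 in heterozygous cultures, which were tested because of the groups where they were high. Fgf1, a ligand of all FGF receptors, was at 12.6, 14.3, 13.9 and 13.3 CPM in wild-type solvent and at 6.93, 5.50, 6.04 and 5.09 CPM in wild-type FK228 libraries. Heterozygous libraries held 17.3, 16.6, 12.9 and 9.93 CPM in solvent and 4.61, 2.83, 4.19 and 4.88 CPM with FK228. No treated library reached a solvent library of either genotype. Fgf1 fell 2.29-fold in wild type (log2 fold change -1.20 ± 0.18, adjusted p = 2.81e-05) and 3.44-fold in heterozygous cultures (log2 fold change -1.78 ± 0.19, adjusted p = 5.1e-07), and the difference of these effects did not pass the test with TMM factors (log2 fold change -0.59 ± 0.26, adjusted p = 0.838).

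Fgf18, known for its part in cartilage and bone growth, fell from 4.25 ± 0.767 to 1.60 ± 0.236 CPM in wild type (log2 fold change -1.41 ± 0.21, adjusted p = 2.51e-05) and from 4.00 ± 0.219 to 1.52 ± 0.336 CPM in heterozygous cultures (log2 fold change -1.39 ± 0.22, adjusted p = 3.95e-05), without overlap. Fgf21, an endocrine FGF, fell from 2.46 ± 0.598 to 0.69 ± 0.244 CPM (log2 fold change -1.82 ± 0.32, adjusted p = 0.000145) and from 2.18 ± 0.652 to 0.56 ± 0.132 CPM (log2 fold change -1.94 ± 0.35, adjusted p = 0.000147), again without overlap. Fgf21 was above the filter level in every solvent library and in only some FK228 libraries. It was tested because of its level in the solvent groups, so these p-values are no separate support. Fgf2, basic FGF, went from 2.69 ± 1.01 to 0.95 ± 0.238 CPM in wild type (log2 fold change -1.49 ± 0.45, adjusted p = 0.00999) and from 2.09 ± 0.891 to 0.83 ± 0.503 CPM in heterozygous cultures (log2 fold change -1.30 ± 0.47, adjusted p = 0.0291). The heterozygous Fgf2 call was lost without heterozygous solvent library 4 or 5 or FK228 library 5 (adjusted p up to 0.0848), with the share of reads outside genes as a covariate (adjusted p = 0.0905) and when only these groups were fitted (adjusted p = 0.0624). The wild-type Fgf2 call was lost with the replicate number as a block in the fit (adjusted p = 0.056). Exons of Fgf2 overlap Nudt6 on the opposite strand (0.851 CPM over all libraries), and the counts do not tell the strands apart.

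A pair of further ligands were called in 1 genotype. Fgf7, a mesenchymal ligand for epithelial FGFR2, fell in wild type from 1.83 ± 0.438 to 0.85 ± 0.409 CPM (log2 fold change -1.09 ± 0.40, adjusted p = 0.0317); the call was lost without wild-type solvent library 3 or 4 or FK228 library 1 or 4 (adjusted p up to 0.101). In heterozygous cultures Fgf7 gave log2 fold change -0.94 ± 0.42, adjusted p = 0.0719. Fgf3, which is required for inner ear induction, fell in heterozygous cultures from 2.01 ± 0.47 to 0.51 ± 0.222 CPM (log2 fold change -1.96 ± 0.57, adjusted p = 0.00785) and gave log2 fold change -1.12 ± 0.55, adjusted p = 0.104 in wild type. Fgf3 was above the filter level in every solvent library and in only some FK228 libraries. It was tested because of its level in the solvent groups, so these p-values are no separate support. Fgf9 and Fgf10, ligands needed for inner ear development, were called in no comparison: Fgf9 had group means of 31.1 to 33.4 CPM, and Fgf10 had 26.3 to 34.5 CPM. Fgf5, at 0.4701 to 2.11 CPM, was not called either.

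Fgf15, the mouse counterpart of FGF19, was the secreted FGF that rose. Its CPM were 0.18, 0.33, 0.056 and 0.11 in wild-type solvent and 0.68, 0.73, 1.15 and 1.02 in wild-type FK228 libraries. In heterozygous libraries they were 0.07, 0, 0.20 and 0.21 in solvent and 1.06, 1.17, 0.47 and 1.81 with FK228. All treated libraries were above all solvent libraries, at levels near the detection limit. The wild-type totals were 61 counts against 13, a depth-corrected ratio of 5.18 (exact 95% interval 2.82 to 10.3), and the heterozygous totals were 61 against 7, a ratio of 9.31 (4.26 to 24.1); the intervals cover counting error only. The edgeR test gave log2 fold change 2.33 ± 0.56, adjusted p = 0.00213 and log2 fold change 3.16 ± 0.62, adjusted p = 0.000373. Fgf15 was tested only because of its level in the FK228 groups, so these p-values are no separate support. An antisense gene that overlaps Fgf15 exons, Gm26793, was at 0.235 CPM over all libraries, and the counts do not tell the strands apart.

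The other secreted FGFs, Fgf6, Fgf8, Fgf17, Fgf20, Fgf22 and Fgf23, did not pass the filter, with group means of 0 to 0.823 CPM, as did Nog and Grem1 among the BMP antagonists. Fgf8, the inner hair cell ligand, had 0.63, 0.28, 0.67 and 0.17 CPM in wild-type solvent libraries, 34 counts in all, and 0 counts in all 4 heterozygous solvent libraries. With 3 counts put in for the 0 of the heterozygous solvent group, Fgf8 was 8.86-fold lower there than in wild type. The exact 95% counting interval of the ratio began at 6.82, and neither value covers the spread between libraries. With FK228 the totals were 17 counts in wild type and 4 in heterozygous cultures, a ratio of 3.43 (exact 95% interval 1.12 to 14.03, counting error only). The fit without a filter called the solvent difference (adjusted p = 0.0136) and not the difference with FK228 (adjusted p = 0.651). Beside this, Otof, a hair cell gene needed for transmitter release, was lower in heterozygous cultures in solvent (log2 fold change -1.24 ± 0.11, adjusted p = 2.12e-06). Slc17a8, another hair cell marker, did not pass there (log2 fold change -0.53 ± 0.50, adjusted p = 0.80), at 1.06 ± 0.236 CPM in wild-type solvent libraries. Of the 14 hair cell markers, 2 were called lower in heterozygous solvent cultures and 0 higher, beside 0.823% of all genes lower. The summed markers were at 391.8 to 603.4 CPM against 587.9 to 802.8 CPM in wild type. The part of hair cell number or state in the Fgf8 counts was not tested.

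Fgf22, a ligand known from synapse formation, was counted 1 time in wild-type solvent libraries and 27 times in wild-type FK228 libraries, a ratio of 29.8 (exact 95% interval 4.92 to 1221). The heterozygous totals were 9 and 46 counts, a ratio of 5.46 (2.64 to 12.7). Both intervals cover counting error only, without the spread between libraries. Exons of Fgf22 overlap Rnf126 on the opposite strand, at 7.56 CPM over all libraries. The fit without a filter called both differences (adjusted p = 0.000436 in wild type and 0.00678 in heterozygous cultures). Fgf20, the ligand of sensory progenitors, had group means of 0.304 to 0.484 CPM, and its exons overlap the far more abundant Micu3.

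The intracellular FGFs Fgf11 to Fgf14, also called FGF homologous factors, are not secreted and bind voltage-gated sodium channels. They were the only class in which a member was called between genotypes in both treatments. Fgf12 (ENSMUSG00000022523, GRCm38 chr16:28160098-28753068, minus strand) was at 2.35, 2.64, 2.30 and 0.80 CPM in wild-type solvent and at 0.63, 0.33, 0.54 and 0.89 CPM in heterozygous solvent libraries. With FK228 it was at 3.52, 4.05, 1.99 and 4.98 CPM in wild type and at 0.98, 0.96, 0.81 and 1.18 CPM in heterozygous cultures. With FK228 the genotypes did not overlap, and in solvent only the lowest wild-type library fell within the heterozygous range. Fgf12 was 3.38-fold lower in heterozygous solvent cultures (log2 fold change -1.76 ± 0.40, adjusted p = 0.0231) and 3.69-fold lower in heterozygous FK228 cultures (log2 fold change -1.88 ± 0.37, adjusted p = 0.00993).

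The solvent call of Fgf12 was lost without any of wild-type solvent libraries 1, 2 and 3 or heterozygous solvent libraries 1, 2 and 4 (adjusted p up to 0.0840), and when only these groups were fitted (adjusted p = 0.0878). With FK228 the call held in all 16 fits that left out 1 library (adjusted p up to 0.0425) and was lost with the replicate block (adjusted p = 0.0696). FK228 raised Fgf12 in wild type from 2.02 ± 0.827 to 3.64 ± 1.25 CPM (log2 fold change 0.84 ± 0.34, adjusted p = 0.0464), a call lost in 11 of those 16 fits (adjusted p up to 0.160: without wild-type solvent library 1, 3 or 4, wild-type FK228 library 1, 2 or 7, heterozygous solvent library 1 or any heterozygous FK228 library), with no filter (adjusted p = 0.0577) and when only these groups were fitted (adjusted p = 0.0611), and the heterozygous effect was log2 fold change 0.72 ± 0.43, adjusted p = 0.181. Markers of neurons, which express Fgf12, also differed by genotype: 6 of 14 spiral ganglion neuron markers were lower in heterozygous solvent cultures (0.823% of all genes) and 3 of 14 with FK228 (0.928% of all genes). Their summed level was 1173 to 1557 CPM in heterozygous and 1320 to 1660 CPM in wild-type solvent libraries, and their part in the Fgf12 difference was not tested.

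REST binds a long motif, RE1, whose right part reads GGACAG and whose left part reads TTCAGCACC, so the Fgf12 start is shown for these letters. The sequence is from RefSeq (GRCm38.p6), runs from 250 bases before to 50 bases after 1 of 4 listed starts (chr16:28564902-28565201, minus strand), and has the reverse complement of GGACAG in capitals.
Fgf12: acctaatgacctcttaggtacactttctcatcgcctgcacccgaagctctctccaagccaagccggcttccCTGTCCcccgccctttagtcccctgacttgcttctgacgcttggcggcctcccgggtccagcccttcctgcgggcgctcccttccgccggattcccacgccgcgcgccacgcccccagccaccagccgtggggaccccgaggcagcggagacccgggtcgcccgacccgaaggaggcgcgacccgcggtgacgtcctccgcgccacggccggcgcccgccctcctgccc
GGACAG occurs on either strand in 22.2% of 32851 promoters of this length, and TTCAGCACC in 0.371%; the latter was not found in this window. GGACAG was not found in the windows of the other 3 listed Fgf12 starts, and this start is shown because it holds the letters. These matches describe the letters only.

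Fgf11 was at 3.92, 2.75, 4.98 and 4.52 CPM in heterozygous solvent and at 6.50, 8.20, 7.43 and 6.29 CPM in heterozygous FK228 libraries. In wild type it was at 7.37, 5.23, 4.94 and 7.99 CPM in solvent and at 5.56, 6.22, 4.11 and 6.85 CPM with FK228. The heterozygous groups did not overlap and the wild-type groups did. Fgf11 rose in heterozygous cultures (log2 fold change 0.82 ± 0.22, adjusted p = 0.00478) and not in wild type (log2 fold change -0.17 ± 0.21, adjusted p = 0.538), and the difference of the effects had an unadjusted p under 0.05 but did not pass after adjustment (log2 fold change 0.98 ± 0.30, adjusted p = 0.552). With spike-in scaling the heterozygous rise became 0.11 with an adjusted p of 0.691. Fgf13 fell in wild type from 4.97 ± 1.62 to 3.04 ± 0.417 CPM (log2 fold change -0.71 ± 0.28, adjusted p = 0.0403), and this call was lost without wild-type solvent library 1, 3 or 4 or any wild-type FK228 library (adjusted p up to 0.147), and with the share of reads outside genes as a covariate (log2 fold change -0.36, adjusted p = 0.231). Fgf14 passed in no comparison (log2 fold change -1.05 ± 0.33, adjusted p = 0.13 for heterozygous against wild type with FK228).

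**Figure D4:**
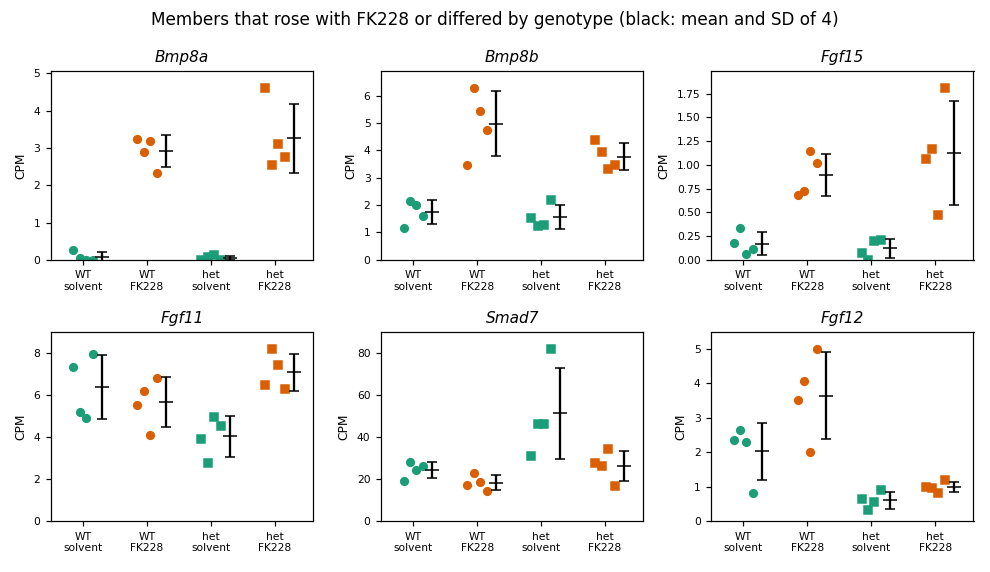
CPM of Bmp8a, Bmp8b, Fgf15, Fgf11, Smad7 and Fgf12 in each library (points, linear axes from 0), with the mean and SD of 4 libraries per group. Bmp8a lies between 2.32 and 4.61 CPM with FK228 and at or below 0.271 CPM in solvent, and Fgf12 is lower in heterozygous than in wild-type FK228 libraries.

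Spry2, which FGF signalling itself induces in many tissues, was the most abundant member and fell in both genotypes. Wild-type libraries held 787, 875, 858 and 764 CPM in solvent and 401, 505, 422 and 383 CPM with FK228. Heterozygous libraries held 914, 841, 809.9 and 775 CPM in solvent and 385, 348, 318 and 429 CPM with FK228. The treated and solvent libraries were far apart in both genotypes. Spry2 fell 1.92-fold in wild type (log2 fold change -0.94 ± 0.10, adjusted p = 3.48e-07) and 2.26-fold in heterozygous cultures (log2 fold change -1.17 ± 0.10, adjusted p = 2.37e-08), the latter the smallest adjusted p among the members.

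Spry4, another Sprouty inhibitor, was at 30.3, 25.7, 26.0 and 32.4 CPM in wild-type solvent and at 14.8, 24.7, 20.8 and 19.8 CPM in wild-type FK228 libraries. In heterozygous libraries it was at 25.7, 27.0, 29.6 and 24.4 CPM in solvent and at 25.9, 21.1, 21.4 and 26.7 CPM with FK228. The wild-type groups did not overlap, whereas the heterozygous groups did. Spry4 fell in wild type (log2 fold change -0.52 ± 0.13, adjusted p = 0.00401) and gave log2 fold change -0.17 ± 0.14, adjusted p = 0.324 in heterozygous cultures. Spry1 was lower without overlap in wild type but missed the threshold (log2 fold change -0.51 ± 0.21, adjusted p = 0.057).

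The other genes of the FGF pathway, a list of 38 adaptors, kinases, targets and feedback genes of which 37 were tested, were split. FK228 raised 7 and lowered 14 in wild type (median log2 fold change -0.22) and raised 4 and lowered 14 in heterozygous cultures (median -0.19). Of all genes, 23.7% were higher and 25.3% lower in wild type, and 23.8% and 24.7% in heterozygous cultures. Among the risers in both genotypes was Ptpn11, the phosphatase SHP2 (log2 fold change 0.63 ± 0.12 and 0.38 ± 0.12). Those that fell in both included Mapk3, the MAP kinase ERK1 (-0.59 ± 0.08 and -0.55 ± 0.08), and Flrt2, a membrane partner of FGF receptors (-1.44 ± 0.13 in each). Etv4, an ETS factor induced by FGF, fell from 12.1 ± 1.68 to 3.38 ± 1.36 CPM in wild type (log2 fold change -1.84 ± 0.28, adjusted p = 2.73e-05). The heterozygous means of Etv4 were 9.69 ± 2.91 CPM in solvent and 4.08 ± 0.993 CPM with FK228. Its relative Etv5 did not pass in wild type (log2 fold change -0.31 ± 0.13, adjusted p = 0.0676), and Dusp6, the ERK phosphatase that FGF induces, fell there (-0.47 ± 0.10, adjusted p = 0.000946). Neither passed in heterozygous cultures (Etv5 -0.06 ± 0.14, adjusted p = 0.741, and Dusp6 -0.16 ± 0.10, adjusted p = 0.209).

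The genes named for a genotype had the smallest p there, so naming in 1 genotype does not mean an effect in that genotype only. In wild type Il17rd (0.73 ± 0.19) rose and Flrt3 (-0.98 ± 0.12) fell. In heterozygous cultures Il17rd went from 6.80 ± 1.61 to 8.75 ± 1.23 CPM and Flrt3 from 36.9 ± 1.47 to 22.9 ± 0.955 CPM. Grb2 (0.71 ± 0.20) and Flrt1 (0.60 ± 0.20) rose in heterozygous cultures, and Nras (-0.67 ± 0.08) fell. In wild type Grb2 went from 26.7 ± 7.32 to 40.9 ± 8.43 CPM and Flrt1 from 6.93 ± 1.24 to 8.26 ± 1.40 CPM. Nras went from 3268 ± 138 to 2379 ± 168 CPM there. Nras, a Ras protein that relays FGF signals, was also the 1 gene of the list called between genotypes, lower in heterozygous FK228 cultures (-0.45 ± 0.08, adjusted p = 0.00496). With spike-in scaling the split of the FGF and BMP pathway lists together, 13 higher and 24 lower in wild type and 10 higher and 23 lower in heterozygous cultures, became 4 higher and 24 lower and 1 higher and 47 lower.

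All 10 genes named Bmp were tested, among them Bmp1, which encodes a protease and not a ligand. With FK228, 2 rose and 7 fell in wild type, and 2 rose and 4 fell in heterozygous cultures. Bmp1 was among those that fell in both. The shares called were 90% and 60%, beside 49.0% and 48.4% of all genes. They include Bmp8a in both genotypes and Bmp15 in wild type, which were tested because of the groups where they were high. The risers were Bmp8a and Bmp8b, neighbouring genes on chromosome 4 known mostly from the germ line and from brown fat. Bmp8a (ENSMUSG00000032726, GRCm38 chr4:123312645-123343252, minus strand) was at 0.27, 0.055, 0 and 0 CPM in wild-type solvent and at 3.24, 2.90, 3.20 and 2.32 CPM in wild-type FK228 libraries. In heterozygous libraries it was at 0, 0.065, 0.13 and 0 CPM in solvent and at 4.61, 2.55, 3.11 and 2.75 CPM with FK228. It was near 0 in every solvent library and above 2 CPM in every FK228 library. Wild-type totals were 7 counts in solvent and 199 with FK228, a ratio of 31.4 (exact 95% interval 14.96 to 79.1). Heterozygous totals were 3 and 179 counts, a ratio of 63.8 (21.5 to 312), and both intervals cover counting error only. Both effects passed edgeR's test (adjusted p = 1.52e-06 and 9.45e-07). Bmp8a was tested only because of its level in the FK228 groups, so these p-values are no separate support.

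Bmp8b was at 1.18, 2.15, 2.02 and 1.61 CPM in wild-type solvent and at 3.46, 6.29, 5.43 and 4.75 CPM in wild-type FK228 libraries. Heterozygous libraries held 1.54, 1.24, 1.28 and 2.19 CPM in solvent and 4.38, 3.93, 3.31 and 3.46 CPM with FK228. Treated and solvent libraries did not overlap in either genotype. The increase was 2.87-fold in wild type (log2 fold change 1.52 ± 0.25, adjusted p = 6.39e-05) and 2.41-fold in heterozygous cultures (log2 fold change 1.27 ± 0.26, adjusted p = 0.000576), where spike-in scaling left 0.56 with an adjusted p of 0.145. Exons of Bmp8b overlap Ppie, a splicing-associated cyclophilin gene on the opposite strand, which rose less (from 69.2 ± 5.69 to 88.7 ± 6.71 CPM in wild type, log2 fold change 0.36 ± 0.09). Of the 50-base words in Bmp8a transcripts 8.74% also occur in Bmp8b, so few reads could be shared, and the sum of both genes rose from 1.82 ± 0.351 to 7.90 ± 1.20 CPM in wild type and from 1.61 ± 0.397 to 7.03 ± 1.32 CPM in heterozygous cultures.

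The starts of Bmp8a (chr4:123343203-123343502, minus strand) and Bmp8b (chr4:123104911-123105210, plus strand) are shown because the genes rose together. Sequences are from RefSeq (GRCm38.p6), 250 bases before to 50 after the start, and capitals mark the longest run both hold.
Bmp8a: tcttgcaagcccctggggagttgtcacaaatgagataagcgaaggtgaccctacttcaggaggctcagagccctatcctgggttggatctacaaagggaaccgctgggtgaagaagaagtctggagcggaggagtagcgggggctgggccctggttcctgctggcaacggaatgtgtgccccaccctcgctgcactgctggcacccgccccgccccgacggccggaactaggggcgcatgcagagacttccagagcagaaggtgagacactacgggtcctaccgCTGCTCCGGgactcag
Bmp8b: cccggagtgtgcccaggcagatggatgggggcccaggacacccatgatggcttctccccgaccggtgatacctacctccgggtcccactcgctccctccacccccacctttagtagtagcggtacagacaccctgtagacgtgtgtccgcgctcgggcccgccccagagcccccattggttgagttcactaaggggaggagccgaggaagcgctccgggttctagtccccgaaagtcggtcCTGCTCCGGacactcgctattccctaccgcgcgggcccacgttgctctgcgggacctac
The shared run is 9 bases long, and 163 of the 300 bases are identical when the windows are aligned. GC made up 62.0% of the Bmp8a and 65.3% of the Bmp8b window.

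Bmp3, an atypical BMP that opposes osteogenic BMP signals, was the BMP ligand with the highest level per kilobase in solvent and fell in both genotypes. In wild type it was at 192, 201, 194 and 135 CPM in solvent and at 42.2, 69.0, 69.1 and 40.4 CPM with FK228. Heterozygous libraries held 208, 219, 160.5 and 211 CPM in solvent and 66.8, 54.5, 103 and 76.5 CPM with FK228. Even the highest treated library was below the lowest solvent library in both genotypes. Bmp3 fell 3.27-fold in wild type (log2 fold change -1.71 ± 0.20, adjusted p = 1.68e-06) and 2.65-fold in heterozygous cultures (log2 fold change -1.41 ± 0.20, adjusted p = 1.31e-05).

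Bmp5, which shapes skeletal elements and is related to Bmp7, was at 22.9, 17.9, 22.8 and 27.9 CPM in wild-type solvent and at 8.74, 9.37, 8.51 and 7.25 CPM in wild-type FK228 libraries. Heterozygous values were 18.6, 21.0, 18.4 and 20.4 CPM in solvent and 6.35, 7.65, 7.84 and 5.74 CPM with FK228. The groups were separated by a wide gap in both genotypes. Bmp5 fell 2.7-fold (log2 fold change -1.43 ± 0.14, adjusted p = 1.79e-07) and 2.84-fold (log2 fold change -1.50 ± 0.14, adjusted p = 1.34e-07).

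Bmp7, a ligand expressed along the cochlear duct, changed less. It was at 28.8, 31.1, 32.7 and 35.8 CPM in wild-type solvent and at 27.0, 26.1, 25.7 and 28.0 CPM in wild-type FK228 libraries, with 35.4, 32.9, 39.7 and 35.0 CPM and 25.5, 31.6, 29.9 and 24.2 CPM in the heterozygous groups. The groups did not overlap, with small gaps. Bmp7 fell 1.2-fold in wild type (log2 fold change -0.26 ± 0.10, adjusted p = 0.0323) and 1.28-fold in heterozygous cultures (log2 fold change -0.36 ± 0.10, adjusted p = 0.00545). The wild-type call was lost without wild-type solvent library 3 or 4 or FK228 library 1, 2 or 4 (adjusted p up to 0.107), with no filter on low counts (adjusted p = 0.0812) and with the share of reads outside genes as a covariate (adjusted p = 0.0654).

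Bmp4, the ligand of the lateral epithelium, was at 47.1, 45.6, 35.5 and 32.6 CPM in wild-type solvent and at 32.4, 35.0, 29.4 and 19.1 CPM in wild-type FK228 libraries. In heterozygous libraries it was at 34.3, 46.0, 40.9 and 45.3 CPM in solvent and at 32.0, 34.8, 26.1 and 41.6 CPM with FK228. Treated and solvent libraries overlapped in both genotypes. Bmp4 fell in wild type (log2 fold change -0.47 ± 0.17, adjusted p = 0.0296) and did not pass in heterozygous cultures (log2 fold change -0.31 ± 0.17, adjusted p = 0.153). The wild-type call was lost without wild-type solvent library 1 or 2 or FK228 library 4 or 7 (adjusted p up to 0.108) and with the share of reads outside genes as a covariate (adjusted p = 0.0889).

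Bmp1, which despite its name is a secreted protease that matures collagens and the BMP antagonist chordin, was at 32.0, 42.5, 55.2 and 61.0 CPM in wild-type solvent and at 33.5, 36.2, 31.0 and 23.4 CPM in wild-type FK228 libraries. Heterozygous values were 36.3, 41.9, 41.4 and 53.1 CPM in solvent and 30.9, 28.7, 25.1 and 22.4 CPM with FK228. The wild-type groups overlapped at the lowest solvent library and the heterozygous groups did not. Bmp1 fell 1.53-fold in wild type (log2 fold change -0.62 ± 0.18, adjusted p = 0.00734) and 1.61-fold in heterozygous cultures (log2 fold change -0.69 ± 0.18, adjusted p = 0.00388). The wild-type call was lost with the replicate block (adjusted p = 0.0938).

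Bmp2, a close relative of Bmp4, fell in wild type from 5.204 ± 1.7 to 3.02 ± 0.932 CPM (log2 fold change -0.79 ± 0.30, adjusted p = 0.0353). This call was lost without wild-type solvent library 1, 3 or 4 or FK228 library 1, 4 or 7 (adjusted p up to 0.116) and with the share of reads outside genes as a covariate (adjusted p = 0.132), and the heterozygous effect was log2 fold change -0.69 ± 0.31, adjusted p = 0.0731. Bmp15, an oocyte factor, was at 2.67, 0.22, 2.19 and 3.85 CPM in wild-type solvent and at 0, 0.60, 0.48 and 0 CPM in wild-type FK228 libraries, with 1 solvent library among the treated values. Its totals of 169 and 18 counts gave a ratio of 0.118 (exact 95% interval 0.0681 to 0.192, counting error only, without the spread between libraries). Bmp15 passed the test in wild type (log2 fold change -3.03 ± 0.81, adjusted p = 0.00464) but not in heterozygous cultures (log2 fold change -0.83 ± 0.85, adjusted p = 0.448). The wild-type call was lost with the replicate block (adjusted p = 0.0764). In heterozygous solvent libraries Bmp15 was at 1.26, 0.39, 0.54 and 0.82 CPM. Wild-type solvent libraries 1, 3 and 4 and heterozygous solvent libraries 1 and 5 were above the filter level (about 0.627 CPM). Bmp15 was tested because of these solvent levels, so its p-value is no separate support. Bmp6 was called in no comparison, at 1.91 to 2.65 CPM, and its exons overlap the abundant Txndc5 on the opposite strand.

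**Figure D5:**
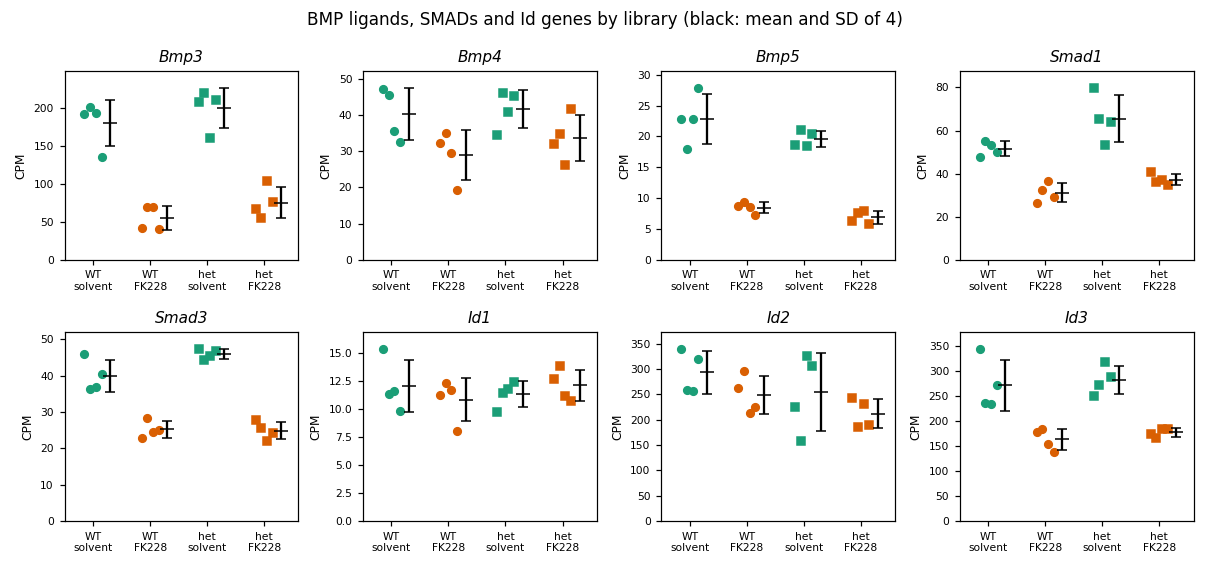
CPM of Bmp3, Bmp4, Bmp5, Smad1, Smad3, Id1, Id2 and Id3 in each library (points, linear axes from 0) with the mean and SD of 4 libraries per group. Bmp3, Bmp5, Smad1, Smad3 and Id3 are lower with FK228 in both genotypes without overlap, and Id1 and Id2 overlap between solvent and FK228.

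Of the 3 BMP receptors, 1 fell with FK228 in each genotype (33.3% called, beside 49.0% of all genes in wild type and 48.4% in heterozygous cultures). Bmpr1a, a type I receptor, was at 62.2, 52.6, 61.0 and 53.8 CPM in heterozygous solvent and at 42.6, 46.5, 55.2 and 46.7 CPM in heterozygous FK228 libraries. In wild type it was at 56.1, 54.1, 59.2 and 59.1 CPM in solvent and at 50.1, 55.6, 46.9 and 47.9 CPM with FK228. The groups overlapped in both genotypes. Bmpr1a fell in heterozygous cultures (log2 fold change -0.26 ± 0.09, adjusted p = 0.0184), a call lost without heterozygous solvent library 1 or 4 or FK228 library 2 (adjusted p up to 0.0692), and did not pass in wild type (log2 fold change -0.19 ± 0.09, adjusted p = 0.0821). Bmpr1b, the other type I receptor of the set, fell in wild type from 9.53 ± 3.02 to 6.40 ± 0.927 CPM (log2 fold change -0.57 ± 0.19, adjusted p = 0.0202), a call lost without wild-type solvent library 4 or FK228 library 1 or 7 (adjusted p up to 0.115), and gave log2 fold change -0.41 ± 0.20, adjusted p = 0.0953 in heterozygous cultures. Bmpr2, the type II receptor, was called in no comparison, with group means of 71.4 to 81.3 CPM.

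Of the 8 SMAD genes, FK228 lowered 3 in wild type (37.5%) and 4 in heterozygous cultures (50%) and raised 0. Of all genes, 49.0% and 48.4% were called, 25.3% and 24.7% of them lower. Smad1, a BMP-activated SMAD, was at 47.6, 55.4, 53.2 and 50.2 CPM in wild-type solvent and at 26.2, 32.5, 36.7 and 29.2 CPM in wild-type FK228 libraries. Heterozygous libraries held 79.8, 65.2, 53.2 and 63.9 CPM in solvent and 40.8, 36.1, 37.2 and 34.7 CPM with FK228. No treated library overlapped the solvent libraries of its genotype. Smad1 fell 1.66-fold (log2 fold change -0.73 ± 0.12, adjusted p = 4.38e-05) and 1.76-fold (log2 fold change -0.82 ± 0.12, adjusted p = 1.29e-05).

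Smad3, which carries TGF-beta and activin rather than BMP signals, was at 45.8, 36.4, 36.9 and 40.5 CPM in wild-type solvent and at 22.8, 28.5, 24.5 and 25.1 CPM in wild-type FK228 libraries. Heterozygous libraries held 47.3, 44.2, 45.3 and 46.8 CPM in solvent and 27.8, 25.5, 22.2 and 24.2 CPM with FK228. There was no overlap in either genotype. Smad3 fell 1.58-fold (log2 fold change -0.66 ± 0.10, adjusted p = 1.68e-05) and 1.84-fold (log2 fold change -0.88 ± 0.10, adjusted p = 6.84e-07).

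Smad5, the second BMP-activated SMAD of the set, was at 23.0, 28.7, 21.3 and 22.5 CPM in wild-type solvent and at 22.0, 17.3, 16 and 16.2 CPM in wild-type FK228 libraries. Heterozygous libraries held 25.4, 26.6, 25.4 and 22.1 CPM in solvent and 14.1, 20.3, 19.5 and 18.1 CPM with FK228. The highest treated wild-type library reached into the solvent range, and the heterozygous groups were apart. Smad5 fell in wild type (log2 fold change -0.41 ± 0.13, adjusted p = 0.015) and in heterozygous cultures (log2 fold change -0.47 ± 0.13, adjusted p = 0.00777). The wild-type call was lost without wild-type solvent library 2 or FK228 library 4 (adjusted p up to 0.0669) and with the replicate block (adjusted p = 0.0879).

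Smad7, the inhibitory SMAD, was the only member called higher in heterozygous than in wild-type cultures. In solvent it was at 18.9, 28.0, 24.3 and 26.1 CPM in wild type and at 30.9, 46.2, 45.9 and 81.7 CPM in heterozygous libraries. With FK228 it was at 17.1, 22.8, 18.5 and 14.3 CPM in wild type and at 27.6, 26.3, 34.2 and 16.4 CPM in heterozygous libraries. The genotypes did not overlap in solvent, where heterozygous library 5 stood above the rest, and they did overlap with FK228. Smad7 was 2.11-fold higher in heterozygous solvent cultures (log2 fold change 1.08 ± 0.24, adjusted p = 0.0232) and gave log2 fold change 0.53 ± 0.25, adjusted p = 0.383 with FK228. The solvent call was lost without wild-type solvent library 1, 3 or 4 or heterozygous solvent library 5 (adjusted p up to 0.0837) and when only the solvent groups were fitted (adjusted p = 0.0658). It was also lost with the replicate block (adjusted p = 0.0994) and with spike-in scaling (adjusted p = 0.105). FK228 lowered Smad7 in heterozygous cultures (log2 fold change -0.97 ± 0.24, adjusted p = 0.00307) and gave log2 fold change -0.42 ± 0.25, adjusted p = 0.172 in wild type.

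Together with Fgf12, Smad7 made up the 2 members called between genotypes in solvent (4.35% of those tested, beside 2.03% of all genes, 1.20% higher and 0.823% lower), and Fgf12 was the 1 member called with FK228 (2.17%, beside 2.14% of all genes, 1.21% higher and 0.928% lower). The genotypes did not overlap for 1 member in solvent (6.23% of all genes) and for 5 members with FK228 (8.84% of all genes). Without the 2 libraries that had the lowest share of reads outside genes, neither solvent call was kept (adjusted p = 0.0977 for Smad7 and 0.135 for Fgf12). Without them the FK228 calls of Bmp2, Bmp4, Fgf12 and Fgf13 in wild type and of Bmpr1a, Fgf2 and Fgfr4 in heterozygous cultures were lost too (adjusted p from 0.0522 for Bmpr1a to 0.1502 for Fgf13). Smad2, Smad4, Smad6 and Smad9 were called in no comparison. The common partner Smad4 had group means of 11.9 to 14.98 CPM, and the second inhibitory SMAD, Smad6, had 3.68 to 5.40 CPM.

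The Id genes, direct targets of BMP SMADs in many cells, did not move as a block. Id3 was at 343, 235, 234 and 271 CPM in wild-type solvent and at 177, 183, 153 and 138 CPM in wild-type FK228 libraries. Heterozygous libraries held 249, 271, 316 and 287 CPM in solvent and 174, 166, 184 and 183 CPM with FK228. The treated libraries lay below the solvent libraries without overlap. Id3 fell 1.66-fold (log2 fold change -0.73 ± 0.11, adjusted p = 3.95e-05) and 1.59-fold (log2 fold change -0.67 ± 0.11, adjusted p = 0.000105).

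Id2 was at 339, 259, 256 and 321 CPM in wild-type solvent and at 263, 296, 213 and 225 CPM in wild-type FK228 libraries, with 226, 159, 326 and 307 CPM and 243, 186, 230.4 and 189 CPM in the heterozygous groups. All 4 groups overlapped. The test gave log2 fold change -0.24 ± 0.17, adjusted p = 0.275 in wild type and log2 fold change -0.26 ± 0.18, adjusted p = 0.231 in heterozygous cultures. Id1 was likewise not called, at 12.1 ± 2.33 CPM in wild-type solvent and 10.9 ± 1.9 CPM in wild-type FK228 libraries (log2 fold change -0.16 ± 0.16, adjusted p = 0.426), and its heterozygous effect was log2 fold change 0.10 ± 0.16, adjusted p = 0.643. Id4, which acts against the other Id proteins in some cells, fell in wild type from 4.96 ± 0.722 to 3.27 ± 0.526 CPM (log2 fold change -0.60 ± 0.21, adjusted p = 0.0228) and gave log2 fold change -0.34 ± 0.22, adjusted p = 0.206 in heterozygous cultures. The wild-type Id4 call was lost without wild-type solvent library 1 or FK228 library 4 or 7 (adjusted p up to 0.0766), with no filter (adjusted p = 0.0512) and with the share of reads outside genes as a covariate (adjusted p = 0.112).

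The starts of Id2 (chr12:25096043-25096342, minus strand), Id3 (chr4:136143572-136143871, plus strand) and Id4 (chr13:48260866-48261165, plus strand) are shown for GGCGCC, letters that BMP SMADs can bind, because these targets differed in their values. The windows are RefSeq's (GRCm38.p6), 250 bases before to 50 after the start, with GGCGCC in capitals.
Id2: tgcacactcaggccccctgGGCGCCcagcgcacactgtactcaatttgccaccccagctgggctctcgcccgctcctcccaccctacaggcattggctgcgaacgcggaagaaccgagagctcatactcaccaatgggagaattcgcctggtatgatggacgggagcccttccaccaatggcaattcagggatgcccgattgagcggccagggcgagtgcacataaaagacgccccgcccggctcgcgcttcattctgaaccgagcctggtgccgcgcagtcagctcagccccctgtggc
Id3: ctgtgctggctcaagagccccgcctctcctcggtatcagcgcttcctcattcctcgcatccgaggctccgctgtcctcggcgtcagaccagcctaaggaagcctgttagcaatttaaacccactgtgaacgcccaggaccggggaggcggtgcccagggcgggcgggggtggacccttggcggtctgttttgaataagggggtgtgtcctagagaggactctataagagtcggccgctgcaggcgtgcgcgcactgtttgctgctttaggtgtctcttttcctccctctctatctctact
Id4: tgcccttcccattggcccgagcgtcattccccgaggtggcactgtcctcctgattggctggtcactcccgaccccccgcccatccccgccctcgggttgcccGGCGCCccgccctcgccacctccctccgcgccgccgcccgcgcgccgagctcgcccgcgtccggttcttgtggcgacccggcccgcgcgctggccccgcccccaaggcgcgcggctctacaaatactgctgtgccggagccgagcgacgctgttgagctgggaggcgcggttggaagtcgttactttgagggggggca
The letters, which read the same on both strands, occur 1 time in the Id2 window, 0 times in the Id3 window and 1 time in the Id4 window, and in 11.9% of 32851 promoters. No statement on SMAD binding follows from them.

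Of the other BMP pathway genes, a list of 38 of which 32 were tested, FK228 raised 6 and lowered 10 in wild type (median log2 fold change -0.17) and raised 6 and lowered 9 in heterozygous cultures (median -0.10). These counts were near the all-gene shares of 49.0% called in wild type and 48.4% in heterozygous cultures. Gdf11, a TGF-beta family ligand, rose from 188.8 ± 23.7 to 395 ± 42.3 CPM in wild type (log2 fold change 1.07 ± 0.10, adjusted p = 1.41e-07) and from 198 ± 24.0 to 374 ± 29.8 CPM in heterozygous cultures. Fstl3, a follistatin-like inhibitor of activin and GDF11, rose as well (1.81 ± 0.25 and 2.24 ± 0.26), as did Msx1, a homeobox target of BMP (1.43 ± 0.26 and 1.35 ± 0.27), and Smurf2, a ubiquitin ligase for SMADs (0.34 ± 0.09 and 0.51 ± 0.10). Lower in both genotypes were the BMP-binding protein gene Bmper (-1.29 ± 0.14 and -1.23 ± 0.15), the pseudoreceptor gene Bambi (-0.63 ± 0.13 and -0.94 ± 0.13) and the antagonist gene Sostdc1 (-0.86 ± 0.18 and -1.04 ± 0.18). The antagonist gene Nbl1 fell in wild type (-0.78 ± 0.17), and its heterozygous means were 81.3 ± 9.76 CPM in solvent and 60.2 ± 6.98 CPM with FK228. Fst, which encodes follistatin, fell in both genotypes. It went from 23.4 ± 3.91 to 8.22 ± 1.52 CPM in wild type (log2 fold change -1.51 ± 0.34, adjusted p = 0.0014). In heterozygous cultures it went from 54.8 ± 19.3 to 14.7 ± 8.41 CPM (log2 fold change -1.91 ± 0.34, adjusted p = 0.000137). No gene of that list was called between genotypes (smallest adjusted p 0.0594, for Fst in solvent).

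Markers of several cell types moved with FK228 beside the members. Of all genes, 25.3% were lower in wild type and 24.7% in heterozygous cultures. All 12 macrophage markers fell in both genotypes, from a summed 446 to 543 CPM to 53.2 to 67.8 CPM in wild type and from 309.5 to 457 CPM to 35.1 to 45.1 CPM in heterozygous libraries. Mesenchyme markers fell in 10 of 12 cases in each genotype, from 3969 to 5136 CPM to 2321 to 2879 CPM in wild type and from 4136 to 5494 CPM to 2354 to 2685 CPM in heterozygous libraries. Supporting cell markers, a list that includes Fgfr3, fell in 9 of 15 cases in wild type and 10 of 15 in heterozygous cultures, and their sum went from 2701 to 3419 CPM to 2317 to 2477 CPM in wild type and from 3231 to 4205 CPM to 2372 to 2951 CPM in heterozygous libraries. Outer sulcus markers, a list that includes Bmp4, fell in 4 of 6 cases in wild type, where 1 rose. In heterozygous cultures 2 of 6 fell and 2 rose. Their sums were 740.3 to 1027 CPM in solvent and 864 to 1097 CPM with FK228 in wild type. In heterozygous libraries they were 728.4 to 1139 CPM and 852.5 to 1190 CPM. Schwann cell markers fell in 6 of 9 cases in wild type and 7 of 9 in heterozygous cultures, from a summed 407.3 to 515.8 CPM to 239.3 to 289.1 CPM in wild type and from 426.6 to 460.3 CPM to 194.6 to 262.8 CPM in heterozygous libraries. Of 14 hair cell markers, 7 were lower and 1 higher in wild type and 5 lower and 1 higher in heterozygous cultures, while their sums were 587.9 to 802.8 CPM in solvent and 664.3 to 787.9 CPM with FK228 in wild type, and 391.8 to 603.4 CPM and 493.5 to 578.3 CPM in heterozygous libraries. The part of these cell types in the values of the FGF and BMP genes was not tested.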

How the data were processed

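RNA of 16 pools of cultured organs of Corti was sequenced after oligo dT priming, template switching and tagmentation, per the labels' protocols. The authors deposited counts of reads per gene, and a table of normalized signal; the submitters' processing notes name STAR 2.5.2a, DESeq2 and the build GRCm38.p4. The annotation release is not given in the sources used here. Each normalized value times 1 factor per library gave the deposited count, so the table served only for gene names. The unstranded counts were used, since the kit does not mark strand; 92 spike-in rows and 22 rows of other added sequences entered neither the library sizes nor the tests.

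After the filterByExpr filter (at least 10 counts in enough libraries and 15 in total), 17125 genes remained. In R 4.3.3, edgeR 4.0.16 fitted its quasi-likelihood model with TMM factors and 1 mean per group to all 16 libraries. Benjamini-Hochberg adjustment ran over the 17125 genes, with a threshold of 0.05 for a call. The script was tested on simulated data. Errors of log2 fold changes are SEs. Exon lengths and positions came from GENCODE M21 (GRCm38), and start regions from RefSeq (GRCm38.p6), which matched 38 of the 54 members.

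The alternatives were DESeq2 1.42.0, RLE factors, spike-in scaling, no filter, only the groups compared, a replicate block, covariates for Y-linked counts and for reads outside genes, and each library left out. Leaving out the 2 libraries with the fewest reads outside genes was chosen after seeing the data. Members called in any comparison and at 1 CPM or more in a group were named with values, and those at 10 CPM or more, or called between genotypes, with every library; of the pathway lists, up to 4 genes in each direction with the smallest p, of which 3 are not reported here. Fgf8, Fgf20, Fgf22, Bmp6, Bmpr2, Fgfr1, Id1, Id2, Spry1, Smad4, Smad6, Fgf5, Fgf9, Fgf10, Fgf14, Etv5, Dusp6, Otof, Slc17a8 and Ctbp2 are shown outside that rule, after their values were seen, as are the libraries of Bmp8a, Bmp8b, Bmp15, Fgf11 and Fgf15. Members and lists were chosen with earlier results of these data known.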

Additional observations from a re-analysis of the deposited data

Results flagged for a closer look

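In 5 of 128 groups of 4 libraries, 1 library lay far from the other 3 relative to the range of the group, where chance gives about 1 in 20. Bmp3 was lowest in wild-type solvent library 4, at 135.1 CPM against 192.4 to 200.7 CPM in the others. Fgf2 was lowest in heterozygous FK228 library 5, at 0.07869 CPM against 1.034 to 1.149 CPM. Fgf3 was lowest in heterozygous solvent library 2, at 1.309 CPM against 2.167 to 2.328 CPM. Fgfr2 was lowest in wild-type solvent library 1, at 70.46 CPM against 99.83 to 100.8 CPM. Fgf13 was lowest in wild-type FK228 library 4, at 2.415 CPM against 3.17 to 3.292 CPM.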

How the results depend on the processing

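DESeq2, RLE factors, no filter and the 2 covariates left the counts of called members within 1.5 times of the reported ones. Leaving out 1 library at a time gave 20 to 29 called members for FK228 in wild type, 21 to 26 in heterozygous cultures, 0 to 2 between genotypes in solvent, 1 to 1 between genotypes with FK228 and 0 to 0 for the difference of the effects. In all those fits 18 of 27 wild-type and 19 of 23 heterozygous FK228 calls were kept.

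Spike-in scaling gave 1 called member between genotypes in solvent (from 2), 34 with FK228 (from 1), 41 for FK228 in heterozygous cultures (from 23) and 10 for the difference of the effects (from 0). Over all 17125 genes it called 104 higher and 192 lower, 96 and 12761, 807 and 10717, and 9 and 4060, in the same order. For the pathway lists it gave 52 between genotypes with FK228 (from 1) and 18 for the difference (from 0). It also turned the sign of 21 of 46 members between genotypes with FK228 and of 18 for the difference of the effects, none of them called before. Of the named members, 9 between genotypes were called after the turn: Bmp4 to -0.52, Bmp7 to -0.67, Bmpr1b to -0.62, Fgfr2 to -0.74, Fgfr4 to -0.57, Id3 to -0.62, Smad1 to -0.48, Smad5 to -0.72 and Spry4 to -0.50, as was 1 difference of effects, that of Id3, at -0.51. The median of all genes moved by a like amount there, to -0.74. Fitting only the groups compared left 0 called members between genotypes in solvent, and leaving out the 2 libraries with the fewest reads outside genes left 0 in solvent and 2 with FK228. The cause of these changes was not tested.

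The labels do not say what the replicate numbers mean. Over 11 same-numbered pairs the correlation of deviations from the group means ran from -0.277 to 0.311. Over differently numbered pairs it ran from -0.394 to 0.498. With so few pairs these ranges do not decide whether the numbers mark pairs. With the replicate block, 16 members were called for FK228 in wild type, 1 between genotypes in solvent and 0 with FK228. Over all genes it called 3241 higher and 3530 lower, 115 and 96, and 71 and 36, in the same order. Beside the losses named above, the block lost the FK228 calls of Bmp2, Bmp4, Bmp7, Fgf7, Fgf12, Fgf13 and Id4 in wild type. In heterozygous cultures it lost those of Bmpr1a and Fgfr4. These adjusted p ran from 0.0546 for Bmpr1a to 0.223 for Bmp2.

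Depth limits the 8 members below the filter, and also Bmp8a, Bmp15, Fgf3, Fgf15 and Fgf21. These reached its level (about 0.627 CPM) in most libraries of 2 or fewer groups and were tested because of the groups where they were high.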

Other observations

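The remaining members below the filter had these totals over 4 libraries. Nog, a secreted BMP antagonist, had 42 counts in wild-type solvent, 13 in wild-type FK228, 21 in heterozygous solvent and 7 in heterozygous FK228 libraries. Grem1, another antagonist, had 6, 0, 15 and 4 counts in the same order. Fgf17 had 6, 22, 11 and 29 counts, Fgf23 had 15, 2, 14 and 3, and Fgf6 had 14, 0, 9 and 16. Without the filter, the edgeR fit called 1 of these 5 genes in 1 comparison, Fgf6 lower with FK228 in wild type (adjusted p = 0.0304), with all 4 treated libraries at 0 counts.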
